A study of Mus musculus with 21 samples.

Results

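Genes that mark tuft cells were followed across cells sorted from the small intestine of mice and whole intestine. The members were 9 named genes, Pou2f3, Trpm5, Plcb2, Rgs13, Dclk1, Sh2d6, Avil, Siglecf and Ptgs1, and every probe set annotated to exactly 1 of these symbols was taken. This gave 18 probe sets of 8 genes, of 34958 probe sets with 1 symbol for 18194 genes. Dclk1 was read by 9 of them, Trpm5 by 3 and each of the other genes by 1. Ptgs1, a cyclooxygenase gene, was not matched to a probe set and is not analysed here.

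Tuft cells are rare chemosensory cells of the intestinal epithelium with a tuft of stiff microvilli at their tip. They sense luminal signals through a cascade first known from taste cells, in which a phospholipase C releases calcium and the channel TRPM5 opens, and in worm infection they release the cytokine IL-25 and lipid mediators that recruit type 2 immune cells. The transcription factor POU2F3 is required for them to form, and the kinase DCLK1 is their most widely used marker in the mouse intestine.

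The arrays covered 10 groups of sorted cells with 2 arrays each and 1 array labelled whole intestine, with villi as its cell type. The sorted cells were red fluorescent (TdTomato+) and labelled Mist1+, after the transcription factor of secretory cells that the gene Bhlha15 encodes, and were parted by the surface protein CD24 into a CD24hi and a CD24lo fraction. Each fraction came from mice with NICD (not spelled out in the labels; commonly the intracellular domain of Notch), mice given doxorubicin (a DNA-damaging drug, spelled doxorubucin in the labels), mice irradiated with 10 Gy, Lgr5-ablated mice (titled DT) and untreated mice. Strain, age, the time after each treatment, the alleles behind TdTomato and NICD, and whether the control mice carried them are not given in the sources used here, and no group given DT without ablation was analysed. Whether the 2 arrays of a group came from separate mice is not stated either, so every p-value measures only the spread between these samples.

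Values are MAS5 signals, a linear brightness per probe set scaled to the same trimmed mean on every array, and the array medians of the 20 sorted samples ran from 101 to 158. Differences are of log2(signal + 16), a scale that understates the fold of dim probe sets, with 2 arrays in each group or the n stated. Their standard error (± SE) is limma's moderated one, with a variance pooled over the 10 groups. It is therefore not the spread of the arrays printed beside it. Adjusted p-values are from limma over all probe sets tested. A probe set entered that test if it was above the array median on at least 2 sorted arrays, which 16 of the 18 did. The 2 left out are Dclk1 probe sets, and 4 that passed needed the NICD CD24hi arrays to do so, 3 of Dclk1 (1423125_at, 1436659_at and 1446190_at) and the one of Siglecf, so counts over all 18 probe sets without the filter are given as well. Among the control probes, the cre spike-in read 75343 on replicate 2 of NICD CD24hi and between 22819 and 48833 on the remaining 19 sorted arrays. The ratio of its 3' to its 5' actin signal, a sign of RNA quality, was 1.03 against 1.30 to 1.58 on those 19. Dependence on that array is stated for many NICD CD24hi calls below, but not for every one. The epithelial markers Epcam, Cdh1, Krt8, Krt20 and Vil1 were above the median on every NICD, Lgr5-ablated and untreated CD24hi array. As a check of the ablation label, Lgr5 itself gave 1140 and 788 in Lgr5-ablated CD24hi cells, against 2841 and 1962 in untreated CD24hi cells, a difference of -1.30 ± 0.55 without a call (adjusted p = 0.495). The stem cell markers Lgr5, Olfm4, Ascl2 and Smoc2 summed to 11878 to 14141 in Lgr5-ablated, 6499 to 7106 in irradiated and 14827 to 15950 in doxorubicin CD24hi cells, against 26288 to 28061 in untreated CD24hi cells, so that a lower sum was not particular to ablation.

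The stretches just before the gene starts are printed because the members moved together and one of them, Pou2f3, encodes a factor that binds the octamer letters ATGCAAAT. RefSeq on GRCm38.p6 gave 9 such stretches of 250 bases for 8 member genes, Ptgs1 included, and none was found for Pou2f3. The octamer was in 0 of these 9 and in 1.6% of 32851 stretches of the same kind, read on both strands. Its shorter core ATGCAAA was in 1 of the 9, that of Avil, with 2 matches of which the farther lies at position -115 from the start, and in 4.12% of all stretches. CATATG, an E-box bound by Mist1 that reads the same on both strands, was in 1 of the 9, that of Siglecf at position -177, and in 3.46% of all. A match is a description of letters and not a binding site. Capitals mark the matches, and Sh2d6 and both starts of Dclk1 are shown because they had the largest fraction differences and hold none of these letters.
Sh2d6, chr6:72520037-72520286 (minus strand): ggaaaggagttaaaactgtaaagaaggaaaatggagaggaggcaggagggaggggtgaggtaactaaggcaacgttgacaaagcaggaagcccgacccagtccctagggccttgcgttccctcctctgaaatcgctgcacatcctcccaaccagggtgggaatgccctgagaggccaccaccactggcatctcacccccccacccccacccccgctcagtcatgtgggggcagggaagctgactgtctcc
Dclk1, upstream start, chr3:55242114-55242363 (plus strand): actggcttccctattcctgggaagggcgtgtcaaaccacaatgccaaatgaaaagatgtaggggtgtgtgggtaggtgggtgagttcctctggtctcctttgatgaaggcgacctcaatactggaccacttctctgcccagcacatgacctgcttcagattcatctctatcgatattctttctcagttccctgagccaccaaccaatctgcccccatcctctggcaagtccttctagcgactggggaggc
Dclk1, downstream start, chr3:55461478-55461727 (plus strand): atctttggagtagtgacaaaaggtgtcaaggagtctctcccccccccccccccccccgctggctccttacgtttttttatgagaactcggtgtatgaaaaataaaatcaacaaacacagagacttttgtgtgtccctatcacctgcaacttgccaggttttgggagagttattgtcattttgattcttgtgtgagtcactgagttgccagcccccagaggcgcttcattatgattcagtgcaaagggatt
Avil, chr10:127000459-127000708 (plus strand): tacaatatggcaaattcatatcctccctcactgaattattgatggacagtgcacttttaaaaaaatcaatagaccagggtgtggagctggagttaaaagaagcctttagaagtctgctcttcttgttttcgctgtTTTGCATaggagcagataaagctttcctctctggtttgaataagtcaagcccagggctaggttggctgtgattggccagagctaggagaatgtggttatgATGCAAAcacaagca
Siglecf, chr7:43351091-43351340 (plus strand): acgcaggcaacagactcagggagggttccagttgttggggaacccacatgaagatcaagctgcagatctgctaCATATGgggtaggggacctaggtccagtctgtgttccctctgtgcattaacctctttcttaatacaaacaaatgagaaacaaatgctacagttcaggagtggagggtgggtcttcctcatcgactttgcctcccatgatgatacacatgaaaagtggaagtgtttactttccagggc

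Tuft cell genes were higher in the CD24hi fraction than in the CD24lo fraction. Averaged over the 5 conditions, 17 of the 18 member probe sets were called higher without the filter, where 17.7% of all 34958 were, and none was called lower. Among filtered probe sets 15 of 16 were called higher, against 25.8% of the 22531 tested, covering 7 of 8 genes. The median difference of the 18 was 2.24, beside a median of 0.06 over all probe sets. In 10 of the 18, from 5 genes, all 10 CD24hi arrays lay above all 10 CD24lo arrays, which held for 1.66% of all probe sets.

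Pou2f3 (1450507_at) had signals of 83.8 at the lowest, 185 at the median and 979.5 at the highest of the 10 CD24hi arrays, against 15.0, 40.1 and 56.8 on the 10 CD24lo arrays. The ranges did not overlap, and the difference was 2.33 ± 0.20, adjusted p = 9.1e-08. The strongest probe set of Trpm5 (1443413_s_at), the cation channel of taste and tuft cells, ran at 148, 329 and 3766 in CD24hi against 28.1, 45.4 and 127 in CD24lo, again without overlap, and differed by 3.0 ± 0.22, adjusted p = 1.13e-08. Its suffix marks a probe set that can match several transcripts. Trpm5 was also higher by 2.24 ± 0.19 (1418783_at) and by 1.61 ± 0.22 (1449224_at), the last with overlapping arrays. Rgs13 (1442263_at), a regulator that shortens G protein signalling, gave 58.8, 147 and 1182 in CD24hi against 0.154, 7.93 and 24.8 in CD24lo, a difference of 3.09 ± 0.22 at adjusted p = 8.02e-09. The other signalling gene, Plcb2 (1452481_at), the phospholipase C of the taste cascade, did not follow them. It gave 85.3, 129 and 351 in CD24hi and 55.5, 116 and 206 in CD24lo, ranges that overlapped widely, and a difference of 0.35 ± 0.17, adjusted p = 0.104.

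Sh2d6 (1430113_at), an SH2 adaptor whose function is little known, had the largest average difference of the 18 probe sets. Its signals were 35.8, 261 and 2122 (lowest, median, highest) in CD24hi and 6.08, 7.60 and 14 in CD24lo, so that every CD24lo value was far below the array medians, and it differed by 3.82 ± 0.23, adjusted p = 6.88e-10. The strongest Dclk1 probe set (1450863_a_at) had 146, 313 and 2186 in CD24hi against 1.48, 22.8 and 57.0 in CD24lo, a difference of 3.49 ± 0.20 at adjusted p = 3.87e-10. These 2 genes were the most clearly parted by the sort. Avil (1419148_at), the actin bundler advillin, was above the array median on 18 of the 20 sorted arrays, with 230.0, 332 and 2559 in CD24hi and 96.8, 199 and 255 in CD24lo. Its highest CD24lo array overlapped its lowest CD24hi arrays, and the difference was 1.31 ± 0.14, adjusted p = 1.38e-06. Siglecf (1424975_at), a sialic acid receptor known from eosinophils and also found on mouse tuft cells, gave 23.0, 62.6 and 1249 in CD24hi and 7.02, 25.6 and 46.7 in CD24lo. The ranges overlapped, and the difference was 1.66 ± 0.23, adjusted p = 1.4e-05. With the NICD arrays out of the average the same 15 filtered probe sets were called, with Siglecf at 0.98 ± 0.25, Avil at 0.88 ± 0.16, Dclk1 (1450863_a_at) at 3.06 ± 0.22 and Sh2d6 at 3.19 ± 0.25. The filter itself still used the NICD arrays. Siglecf and Dclk1 1423125_at, 1436659_at and 1446190_at passed it only through NICD CD24hi, so their calls are not free of NICD. In sorted bulk RNA, more tuft cells and more RNA of these genes per cell cannot be told apart, here and in every comparison that follows.

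Other epithelial markers parted the fractions too. Averaged over conditions, 4 of 4 stem cell markers, 4 of 5 Paneth cell markers and 4 of 9 enteroendocrine markers were called higher in CD24hi, beside 25.8% of all probe sets. The stem cell markers summed to 6499, 15389 and 28061 (lowest, median, highest of 10 arrays) in CD24hi and to 1053, 6235 and 18768 in CD24lo, and the Paneth cell markers to 65923, 80890 and 186307 against 41882, 53099 and 77456. Sst, the somatostatin gene of D cells, was called higher in CD24hi in each of the 5 conditions, by 2.20 to 4.68, as were Lgr5, by 1.89 to 4.42, and the Paneth cell gene Pla2g2a, by 1.59 to 4.38. The enterocyte markers went the other way, 4 of 4 called lower beside 17.5% of all probe sets, at sums of 3570, 12227 and 22690 in CD24hi against 13967, 33028 and 63445 in CD24lo. Alpi, Lct and Apoa1 were called lower in each condition but NICD. The part of these cell types in the members' fraction differences was not tested.

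**Figure D1:**
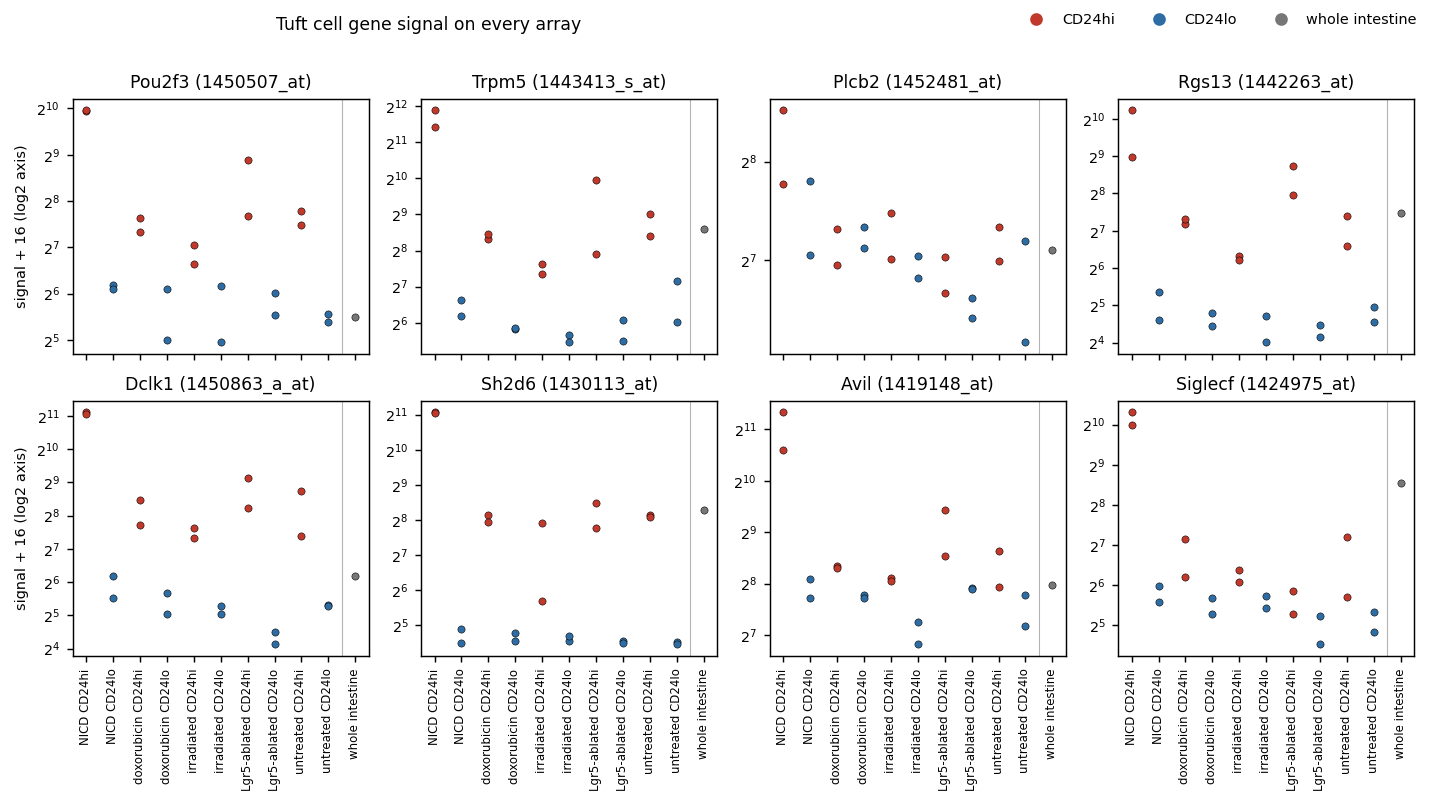
Signal + 16 on a log2 axis for the strongest probe set of each of 8 tuft cell genes, 1 point per array, by group; red is CD24hi, blue is CD24lo and grey is the single whole intestine array. In 7 of the 8 panels both NICD CD24hi arrays lie above every other array, and only for Plcb2 do they overlap the rest.

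In untreated mice 5 of the 8 genes were called higher in CD24hi, all but Avil, Siglecf and Plcb2. Without the filter 12 of the 18 probe sets were called higher in CD24hi, against 3.98% of all, and with it 11 of 16, against 7.02%. Sh2d6 had signals of 265 and 257 in untreated CD24hi cells, against 6.87 and 6.08 in untreated CD24lo cells, a difference of 3.62 ± 0.51, adjusted p = 0.000155. Both CD24hi arrays were alike and far above the CD24lo pair. Pou2f3 had 162 and 205 in CD24hi, against 31.4 and 26.1 in CD24lo, and differed by 2.15 ± 0.46, adjusted p = 0.00486. Rgs13 had 152 and 79.6 in CD24hi against 14.8 and 7.52 in CD24lo, and differed by 2.24 ± 0.49, adjusted p = 0.00609. For both genes the pairs did not overlap.

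Trpm5 (1443413_s_at) had 503 and 322 in untreated CD24hi cells, against 49.2 and 127 in untreated CD24lo cells, and differed by 2.12 ± 0.49, adjusted p = 0.00843. Another probe set of Trpm5 (1418783_at) had 305 and 251 against 68.7 and 78.4, and differed by 1.71 ± 0.41, adjusted p = 0.0108. Neither Trpm5 call held without untreated CD24lo replicate 1 (adjusted p = 0.125 and 0.0757) or without CD24hi replicate 1 (0.0935 and 0.0868), and Rgs13 lost its call without the same CD24hi array (0.0867). Avil had 379 and 230.0 in CD24hi against 128 and 203 in CD24lo, a difference of 0.81 ± 0.32 that did not pass, adjusted p = 0.114. Siglecf had 132 and 35.8 in CD24hi against 12.7 and 24.0 in CD24lo, also without a call at 1.37 ± 0.50, adjusted p = 0.0881. Plcb2 overlapped, with 145 and 111 in CD24hi and 55.5 and 130.2 in CD24lo. The calls of Pou2f3, Sh2d6 and 3 Dclk1 probe sets (1424271_at, 1450863_a_at and 1451917_a_at) held whichever of the 4 arrays was left out. Without untreated CD24hi replicate 1 only 5 filtered probe sets were called.

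All 9 Dclk1 probe sets ran higher in CD24hi than in CD24lo in untreated mice, but they did not read equally brightly. The strongest, 1450863_a_at, had 416 and 153 in untreated CD24hi cells and 23.8 and 23.0 in untreated CD24lo cells, a difference of 2.78 ± 0.44, adjusted p = 0.000477. The next, 1451917_a_at, had 238 and 133 against 13.0 and 7.80, and differed by 2.89 ± 0.43, adjusted p = 0.000274. Both carry the suffix of probe sets shared by transcripts of 1 gene, and in both the CD24hi pair spread more than the CD24lo pair. Probe set 1435940_at had 218 and 80.4 against 11.6 and 7.0 (2.58 ± 0.50, adjusted p = 0.00247). Probe set 1424271_at had 120.0 and 92.8 against 10.0 and 19.4 (2.00 ± 0.37, adjusted p = 0.00173). Replicate 1 was the higher CD24hi array in each of these 4, as in the other 5.

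Probe set 1423125_at of Dclk1 had 158 and 73.2 in untreated CD24hi cells, against 11.6 and 30.2 in CD24lo cells (1.80 ± 0.48, adjusted p = 0.0185). The dimmer 1436659_at had 88.5 and 47.8 against 2.76 and 1.04 (2.19 ± 0.57, adjusted p = 0.0172). The one tested Dclk1 probe set without a call was 1446190_at, with 73.4 and 55.4 against 15.9 and 38.0 (0.94 ± 0.47, adjusted p = 0.219). The 2 below the filter were 1451289_at, with 79.9 and 21.6 against 0.98 and 0.907, and 1424270_at, with 51.3 and 18.6 against 2.41 and 8.19. Without the filter their differences were 1.83 (adjusted p = 0.0327) and 1.19 (adjusted p = 0.112). No Dclk1 pair overlapped, so the probe sets differed in brightness and in whether they passed, not in direction. Over the 20 sorted arrays the other 8 correlated with 1450863_a_at at r = 0.884 to 0.974, and over the 16 arrays without NICD at 0.775 to 0.967, with 1424270_at lowest and 1451917_a_at highest in both. They read 1 gene in the same RNA, so this is no replication.

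**Figure D2:**
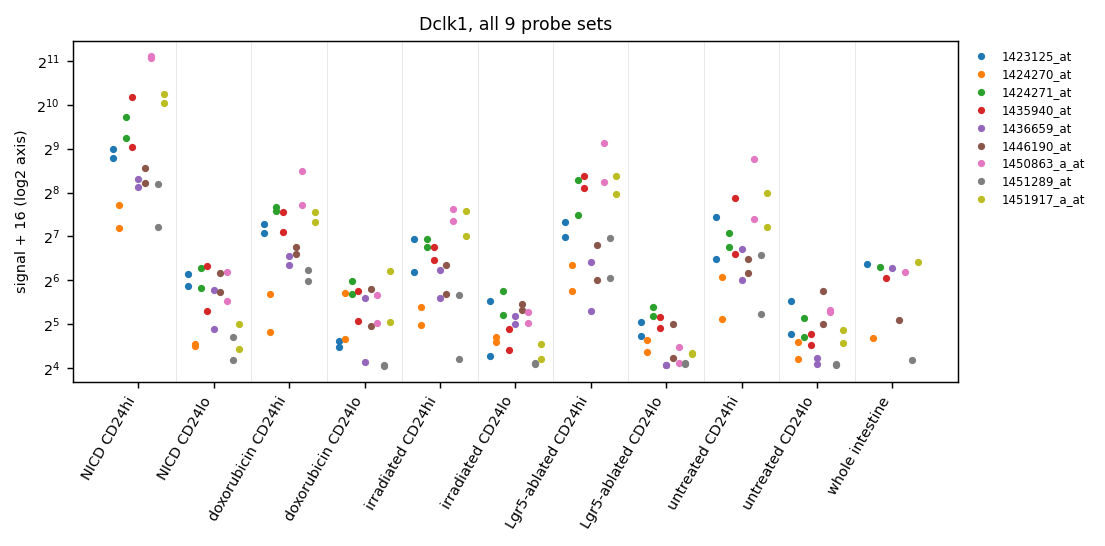
Signal + 16 on a log2 axis for the 9 probe sets of Dclk1 by group, 1 point per array and 1 colour per probe set. In NICD CD24hi cells the 9 span 131 to 2186, and in untreated CD24lo cells 0.907 to 38.0.

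The fraction difference was present in each treated condition, to different extents. With NICD it was called in 17 of 18 probe sets without the filter (6.95% of all) and in 15 of 16 with it (11.3%), with a median of 3.61 over the 18. After doxorubicin it was called in 12 without the filter (8.69%) and in 10 with it (14.9%), with a median of 1.80, and after irradiation in 8 (3.92%) and in 10 (6.83%), with a median of 1.32. In Lgr5-ablated mice it was called in 13 (1.83%) and in 12 (3.29%), with a median of 2.40. No probe set was called lower in any of them.

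With NICD, Sh2d6 gave 2122 and 2097 in CD24hi, against 6.69 and 14 in CD24lo, a difference of 6.35 ± 0.51, adjusted p = 1.01e-06. The strongest Dclk1 probe set gave 2186 and 2136 against 29.8 and 57.0, and differed by 5.23 ± 0.44, adjusted p = 1.67e-06. Both fractions were from mice with NICD, and the high signals were in CD24hi alone. Trpm5 (1443413_s_at) gave 2713 and 3766 against 82.7 and 57.1 (5.24 ± 0.49), Rgs13 1182 and 483 against 8.33 and 24.8 (4.62 ± 0.49), and Pou2f3 974 and 979.5 against 56.8 and 53.1 (3.81 ± 0.46). Siglecf gave 1249 and 1006 against 31.5 and 46.7 (4.38 ± 0.50) and Avil 1531 and 2559 against 255 and 196 (3.06 ± 0.32). Plcb2, at 202 and 351 against 116 and 206, overlapped and was the one tested probe set without a call (0.72 ± 0.38, adjusted p = 0.183). The 15 calls held whichever of the 4 arrays was left out. Of these, Siglecf and Dclk1 1423125_at, 1436659_at and 1446190_at passed the filter only through the NICD CD24hi arrays, and they were also called without it.

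After doxorubicin, Sh2d6 gave 267 and 229.9 in CD24hi against 11.4 and 7.64 in CD24lo (3.38 ± 0.51, adjusted p = 0.000208). The strongest Dclk1 probe set gave 193 and 342 against 16.6 and 34.6 (2.75 ± 0.44, adjusted p = 0.000333). Rgs13 gave 129.5 and 142 against 5.77 and 11.5 (2.63 ± 0.49, adjusted p = 0.00113), Trpm5 (1443413_s_at) 302 and 335 against 41.3 and 41.7 (2.54 ± 0.49, adjusted p = 0.00145). These 4 kept their calls without any 1 array. Pou2f3, at 183 and 144 against 52.4 and 15.9, was called at 1.93 ± 0.46 (adjusted p = 0.00568) but not without CD24lo replicate 2 (0.0941) or CD24hi replicate 1 (0.058). Avil at 307 and 302 against 203 and 195, and Siglecf at 58.2 and 126 against 35.4 and 22.6, did not pass (adjusted p = 0.216 and 0.0916).

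After irradiation the mean level in CD24hi was the lowest of the 5 conditions for 14 of the 18 probe sets. Sh2d6 gave 35.8 and 227 in CD24hi, a wide spread, against 7.57 and 9.96 in CD24lo (2.18 ± 0.51, adjusted p = 0.00776), and lost its call without CD24hi replicate 2 (0.143) or CD24lo replicate 1 (0.0643). The strongest Dclk1 probe set gave 146 and 180.5 against 22.7 and 16.8 (2.33 ± 0.44, adjusted p = 0.00174), and 1451917_a_at gave 113 and 174 against 2.50 and 7.46 (2.91 ± 0.43, adjusted p = 0.000216). These were the 2 calls that held without any 1 array, and leaving out 1 array took the count of 10 to between 3 and 6. Trpm5 (1443413_s_at) gave 183 and 148 against 35.1 and 28.1 (1.93 ± 0.49, adjusted p = 0.0138) and Rgs13 64.3 and 58.8 against 10.2 and 0.154 (1.91 ± 0.49, adjusted p = 0.0146). Pou2f3 at 116 and 83.8 against 15.0 and 56.3, and Siglecf at 51.4 and 67.0 against 27.2 and 37.4, were not called, and Avil at 260.3 and 249 against 96.8 and 136 was called at 1.05 ± 0.32 (adjusted p = 0.0394).

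In Lgr5-ablated mice the strongest Dclk1 probe set gave 541 and 285 in CD24hi against 1.48 and 6.46 in CD24lo, a difference of 4.37 ± 0.44, adjusted p = 1.56e-05. Rgs13 gave 407 and 232 against 1.68 and 6.12 (4.03 ± 0.49, adjusted p = 0.000109) and Sh2d6 342 and 202 against 7.73 and 6.71 (3.59 ± 0.51, adjusted p = 0.000395). In each the CD24hi pair lay far above the CD24lo pair. Trpm5 (1443413_s_at) gave 983 and 226 against 51.5 and 29.3 (3.15 ± 0.49), with CD24hi replicate 1 several-fold above replicate 2. Pou2f3 gave 454 and 188 against 30.3 and 48.8 (2.50 ± 0.46, adjusted p = 0.00363), and its call was lost without that first array (0.094). Without it 7 of the 12 filtered calls were left. Siglecf gave 41.4 and 23.0 against 7.02 and 21.2, and Avil 673 and 357 against 225 and 223, both short of the threshold (adjusted p = 0.495 and 0.062).

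**Figure D3:**
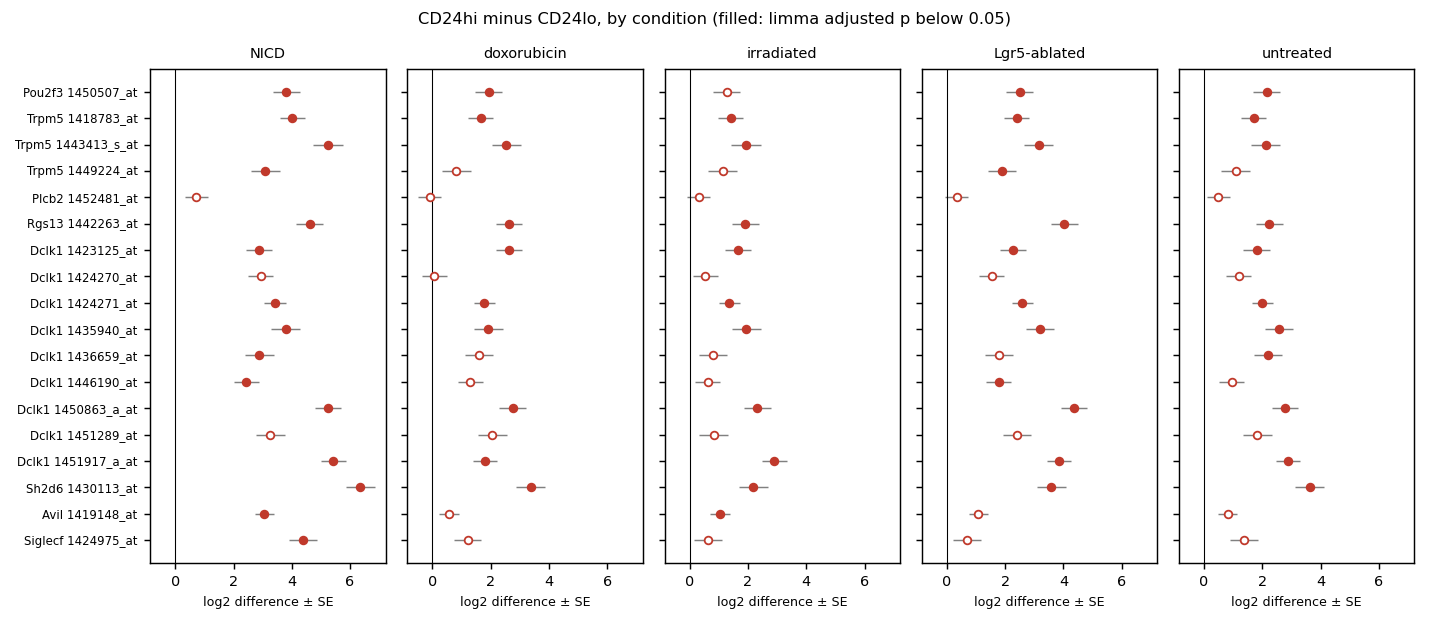
Difference of log2(signal + 16), CD24hi minus CD24lo, ± SE for the 18 tuft cell probe sets in each of the 5 conditions; filled points have a limma adjusted p below 0.05, and Dclk1 1424270_at and 1451289_at were below the filter and are always open. Points run farthest to the right with NICD, up to 6.35 for Sh2d6. Plcb2 runs from -0.10 after doxorubicin to 0.72 with NICD and is open throughout.

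The highest signals were in NICD CD24hi cells. Against untreated CD24hi cells, 16 of the 18 probe sets were called higher without the filter, where 3.09% of all were, and 14 of 16 with it, where 3.68% were. Both NICD CD24hi arrays lay above every other array, whole intestine included, for 17 of the 18 probe sets, against 4.06% of all probe sets. Siglecf had the largest difference, with 1249 and 1006 in NICD CD24hi cells against 132 and 35.8 in untreated CD24hi cells (3.70 ± 0.50, adjusted p = 0.000552). It passed the filter only through these NICD CD24hi arrays, and was also among the 16 called without the filter. The median over the 18 was 2.40, beside 0.09 over all probe sets.

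Dclk1 (1450863_a_at) had 2186 and 2136 in NICD CD24hi cells against 416 and 153 in untreated CD24hi cells, a difference of 3.01 ± 0.44, adjusted p = 0.000772. Sh2d6 had 2122 and 2097 against 265 and 257 (2.94 ± 0.51, adjusted p = 0.00257), and Trpm5 (1443413_s_at) 2713 and 3766 against 503 and 322 (2.94 ± 0.49, adjusted p = 0.00233). Avil had 1531 and 2559 against 379 and 230.0 (2.68 ± 0.32, adjusted p = 0.000248). Together with Siglecf and Dclk1 1424271_at (827 and 591 against 120.0 and 92.8, 2.56 ± 0.37), these kept their calls whichever of the 4 arrays was left out. Rgs13 had 1182 and 483 against 152 and 79.6 (2.61 ± 0.49, adjusted p = 0.00498), and lost its call without untreated replicate 2 (0.0822). Pou2f3 had 974 and 979.5 against 162 and 205 (2.32 ± 0.46, adjusted p = 0.00654), and lost it without NICD replicate 2 (0.0679), the array with the odd control probes, or untreated replicate 1 (0.0596). So did Trpm5 1418783_at, at 1009 and 1480.0 against 305 and 251, without NICD replicate 2 (0.119) or untreated replicate 2 (0.0779). Without untreated CD24hi replicate 2 the count of 14 was 7.

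The remaining Dclk1 probe sets went the same way in NICD CD24hi cells. Probe set 1451917_a_at had 1039.8 and 1190.4, against 238 and 133 in untreated CD24hi cells (2.54 ± 0.43, adjusted p = 0.00241), and 1435940_at had 1144 and 505 against 218 and 80.4 (2.37 ± 0.50, adjusted p = 0.00953). Probe set 1446190_at had 361 and 284 against 73.4 and 55.4 (2.07 ± 0.47, adjusted p = 0.0161), and 1423125_at had 489.6 and 423 against 158 and 73.2 (1.92 ± 0.48, adjusted p = 0.0259). The pairs did not overlap in any of them. Probe sets 1446190_at and 1423125_at passed the filter only through the NICD CD24hi arrays, and both were also called without it. Probe set 1436659_at, at 303 and 265 against 88.5 and 47.8, was not called (1.87 ± 0.57, adjusted p = 0.0645), nor was Plcb2, at 202 and 351 against 145 and 111 (0.98 ± 0.38, adjusted p = 0.132). Below the filter, 1424270_at had 131 and 193 against 51.3 and 18.6 and 1451289_at had 278 and 132 against 79.9 and 21.6. Without the filter their adjusted p-values were 0.02 and 0.0504. The third Trpm5 probe set, 1449224_at, had 551 and 766 against 154 and 75.1 (2.42 ± 0.49, adjusted p = 0.00831).

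**Figure D4:**
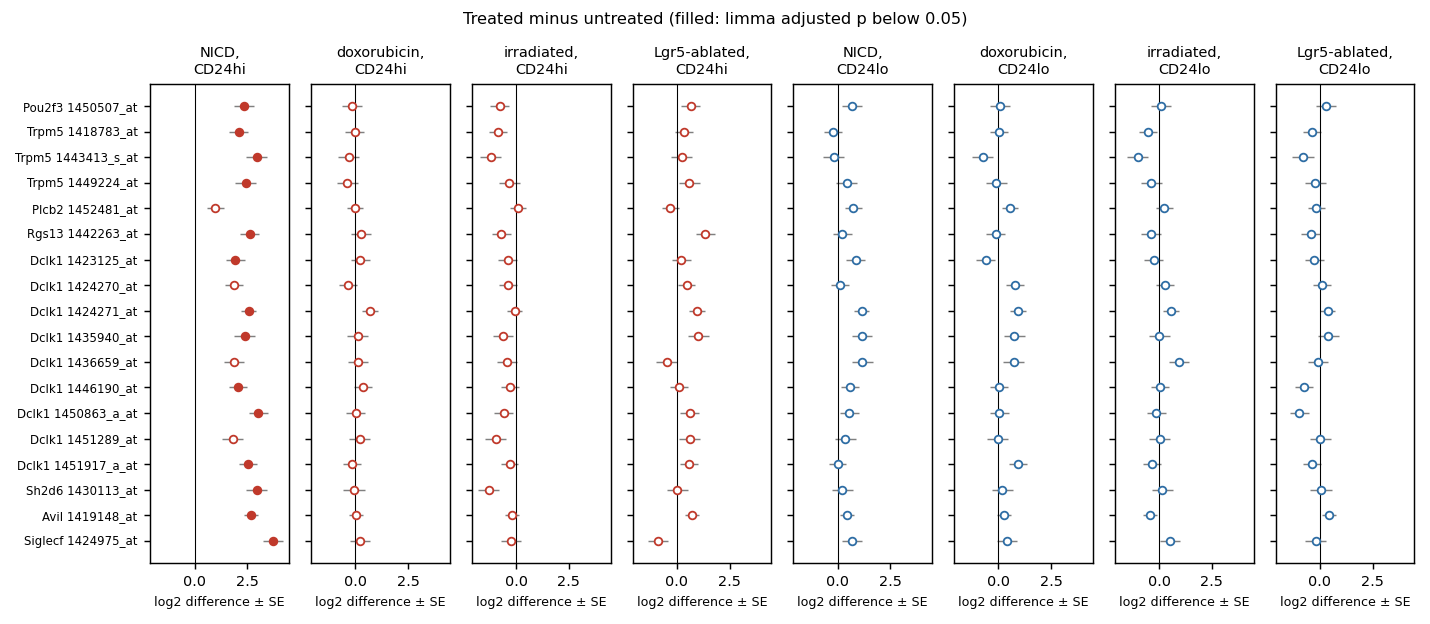
Difference of log2(signal + 16), treated minus untreated, ± SE for the 18 tuft cell probe sets, with the 4 treatments in CD24hi cells at the left and in CD24lo cells at the right; filled points have a limma adjusted p below 0.05, and Dclk1 1424270_at and 1451289_at were below the filter and are always open. Filled points occur with NICD in CD24hi cells only, where Siglecf reaches 3.70.

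No member was called after the other treatments in CD24hi cells. After doxorubicin 0 of 16 filtered probe sets were called in either direction by limma (0 at an unadjusted p below 0.05), against 0.888% of all tested, and the 18 differences had a median of 0.03. Doxorubicin CD24hi cells had 193 and 342 of Dclk1 1450863_a_at against 416 and 153 in untreated CD24hi cells, and 267 and 229.9 of Sh2d6 against 265 and 257. The pairs overlapped for both genes. In Lgr5-ablated CD24hi cells 0 of 16 were called (3 at an unadjusted p below 0.05), against 0.621% of all tested. Of the 18 differences 15 were positive, all but those of Siglecf, Plcb2 and Dclk1 1436659_at, with a median of 0.51 beside 0.02 over all probe sets. Rgs13 had the largest, with 407 and 232 against 152 and 79.6 (1.35 ± 0.49, adjusted p = 0.362). Its pairs did not overlap. Those of Dclk1 1450863_a_at (541 and 285 against 416 and 153) and of Pou2f3 (454 and 188 against 162 and 205) did.

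In irradiated CD24hi cells 0 of 16 were called as well (2 at an unadjusted p below 0.05), against 3.74% of all tested. Of the 18 differences 17 were negative, all but that of Plcb2 (0.08), with a median of -0.42, while 44.3% of all probe sets were negative. The farthest were Sh2d6, at 35.8 and 227 in irradiated CD24hi cells against 265 and 257 in untreated CD24hi cells (-1.30 ± 0.51, adjusted p = 0.21), and Trpm5 1443413_s_at, at 183 and 148 against 503 and 322 (-1.21 ± 0.49, adjusted p = 0.234). For both the irradiated pair lay below the untreated pair, as it did for Pou2f3 (116 and 83.8 against 162 and 205), Rgs13 (64.3 and 58.8 against 152 and 79.6) and Trpm5 1418783_at (146 and 147 against 305 and 251). Without irradiated replicate 2, 1 member was called. These comparisons share the 2 untreated CD24hi arrays, whose replicate 1 was the higher one for all 9 Dclk1 probe sets. Here and in the other counts the 18 probe sets are not 18 separate readings, since 9 read Dclk1 and 3 read Trpm5 in the same RNA.

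In the CD24lo fraction no filtered member was called by limma with NICD (11.9% of all probe sets tested were called), after doxorubicin (12.4%), after irradiation (3.91%) or in Lgr5-ablated mice (0.213%), and at an unadjusted p below 0.05 the counts were 2, 2, 0 and 1. The strongest Dclk1 probe set had 29.8 and 57.0 with NICD, 16.6 and 34.6 after doxorubicin, 22.7 and 16.8 after irradiation and 1.48 and 6.46 in Lgr5-ablated mice, against 23.8 and 23.0 in untreated mice. The lowest values were those of Lgr5-ablated mice, on a scale where such values lie far below the array median. Sh2d6 stayed between 6.08 and 14 on all 10 CD24lo arrays. With NICD 15 of the 18 differences were positive, with a median of 0.49 beside 0.19 over all probe sets. Dclk1 1424271_at, at 40.9 and 62.3 against 10.0 and 19.4 (1.14), was called there with a pseudocount of 1 (adjusted p = 0.0293) and without the variance trend (0.0338).

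Whether a treatment moved the members differently in the 2 fractions was tested as the difference of its CD24hi and CD24lo effects. For NICD, 4 of 16 filtered probe sets were called, against 0.963% of all tested, and 0 of 18 without the filter, against 0.177% of all. They were Trpm5 1443413_s_at (3.12 ± 0.70, adjusted p = 0.0435), Siglecf (3.01 ± 0.71, adjusted p = 0.0457), Dclk1 1451917_a_at (2.54 ± 0.61, adjusted p = 0.0457) and Avil (2.24 ± 0.46, adjusted p = 0.0378). Sh2d6 at 2.72 ± 0.72 (adjusted p = 0.0547) and Dclk1 1450863_a_at at 2.46 ± 0.62 (adjusted p = 0.0518) fell just short. No member was called for doxorubicin (0.00888% of all tested), irradiation (0%) or Lgr5 ablation (0.00444%), with 0, 0 and 2 at an unadjusted p below 0.05. The 4 NICD calls lay close to the threshold. No member was called without any 1 of the 4 untreated arrays, without NICD CD24lo replicate 2 or without NICD CD24hi replicate 2, the array with the odd control probes; 2 were called without NICD CD24lo replicate 1 and 7 without NICD CD24hi replicate 1.

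Ordered by group mean, NICD CD24hi ranked first of the 10 sorted groups for each of the 18 probe sets. Lgr5-ablated CD24hi ranked second for 13 and doxorubicin CD24hi for 4. For Plcb2 the second was NICD CD24lo, at 116 and 206. The pan-leukocyte markers Ptprc, Cd52, Coro1a and Laptm5 had their highest sum of the sorted groups there, 5101 to 6410. The part of leukocyte RNA in Plcb2 was not tested. For Trpm5 1443413_s_at the second place of Lgr5-ablated CD24hi rested on its replicate 1, since replicate 2 lay below both untreated CD24hi arrays. None of the doxorubicin, irradiated and Lgr5-ablated CD24hi levels was set apart from untreated CD24hi by a call, and these 3 groups were not compared with each other. The single whole intestine array gave Siglecf at 360.1, above every sorted array but those of NICD CD24hi, and Trpm5 1443413_s_at at 373, Trpm5 1418783_at at 313, Sh2d6 at 297 and Rgs13 at 162, all within the range of the CD24hi arrays. It gave Trpm5 1449224_at at 67.2, just below the lowest CD24hi array of that probe set at 69.0. It gave Pou2f3 at 29.2 and the 9 Dclk1 probe sets at 2.26 to 70.0. The median signal of this array was 62.7, against 101 to 158 on the sorted arrays, so equal signals do not stand equally high on it. With 1 array these are values without a test.

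Other tuft cell genes were taken as lists by role, of which 30 genes were tested. Averaged over conditions, 4 of 4 tested genes of eicosanoid synthesis were higher in CD24hi, among them Alox5ap (1.27 ± 0.26), which feeds leukotriene synthesis, and Ptges (1.09 ± 0.15), a prostaglandin E synthase. So were 5 of 6 transcription factors, led by Sox9 (1.95 ± 0.17), which crypt base and Paneth cells also use. This list holds Ascl2, which is also counted among the stem cell markers. Of 7 genes of leukocyte-type signalling 5 were higher, with Lrmp at 2.15 ± 0.19 and Pik3r5, a regulatory subunit of phosphoinositide kinase, at 1.86 ± 0.21, and 1 was lower, Ptprc at -0.89 ± 0.31. By condition, Ptprc was called lower only with NICD (-3.09 ± 0.68). Ptprc is also counted among the pan-leukocyte markers. These summed to 5101 to 6410 in NICD CD24lo cells, against 261 to 1347 in untreated CD24lo cells. Averaged over conditions, 3 of 6 structural and other genes were higher, with Nrep at 2.10 ± 0.30. In that list 1 was lower, Hepacam2 at -0.56 ± 0.08, a gene that goblet cells also express. Taste-type signalling gave 0 higher and 2 lower of 4 tested, Gng13 at -0.38 ± 0.15 and Itpr3 at -0.38 ± 0.12. By condition, Gng13 was called lower only with NICD (-1.39 ± 0.33), where Plcg2 was called higher (1.41 ± 0.27). Itpr3 was called lower only after irradiation (-1.07 ± 0.26), and ran at 0.50 ± 0.26 with NICD. Averaged over conditions, the cytokine and acetylcholine genes gave 1 higher (Il17rb, 0.44 ± 0.13) and 1 lower (Il13ra1, -0.46 ± 0.10) of 3. In that comparison 25.8% of all probe sets were called higher and 17.5% lower, so that 1 of 3 is near the background.

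Some of these 30 genes moved with NICD in CD24lo cells too. Against untreated CD24lo cells, Ptprc was called higher by 4.41 ± 0.68, Spib by 3.16 ± 0.48 and Fyb by 2.48 ± 0.46. So were Alox5ap (2.36 ± 0.58), Tuba1a (1.89 ± 0.45) and Il17rb (1.14 ± 0.29), among others. Plcg2, Hmx3, Gfi1b, Matk, Pik3r5, Lrmp and Hepacam2 were not called there, and Espn was called lower (-1.19 ± 0.37). In CD24lo cells 11.9% of all probe sets were called in either direction. In NICD CD24hi against untreated CD24hi cells 12 of these 30 genes were called higher, beside 3.68% of all probe sets, and 0 lower. They were spread over the lists, with 1 of 4 eicosanoid genes (Alox5ap, 2.97 ± 0.58, adjusted p = 0.00594), 3 of 6 transcription factors (Hmx3 2.52 ± 0.43, Spib 2.13 ± 0.48, Gfi1b 2.10 ± 0.48) and 4 of 7 leukocyte-type genes (Matk, 2.78 ± 0.48, led). The rest were Il17rb, part of the receptor for IL-25, at 2.01 ± 0.29 (adjusted p = 0.000766), Plcg2 at 1.75 ± 0.27, Tuba1a at 2.26 ± 0.45 and Hepacam2 at 0.78 ± 0.18. None of these transcription factors, nor Tuba1a or Hepacam2, kept its call without NICD CD24hi replicate 2, the array with the odd control probes. Without NICD CD24hi replicate 2, an alternative chosen after seeing the data, 4 were called. Between the fractions with NICD 12 were called higher and 2 lower in CD24hi, where 11.3% of all probe sets were called higher and 10.3% lower, and without that array 7 and 0.

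Markers of other cell types moved with the NICD CD24hi result. Of 9 enteroendocrine markers 8 were called higher in NICD than in untreated CD24hi cells, Chga by 4.02 ± 0.64 and Neurod1 by 3.11 ± 0.51, and 4 without NICD replicate 2. Their summed signal was 55434 to 81370 in NICD CD24hi cells, against 11508 to 12057 in untreated CD24hi cells, and in Lgr5-ablated CD24hi cells it was 12911 to 39718. The 4 enterocyte markers summed to 11772 to 15212 with NICD against 3570 to 7975 untreated, with Apoa1 called at 1.91 ± 0.32 (adjusted p = 0.00234) and 0 of 4 called without NICD replicate 2. Krt20, a keratin of differentiated epithelium, was called at 2.06 ± 0.21 (adjusted p = 7.57e-05), and of the 4 stem cell markers Smoc2 at 0.86 ± 0.22 (adjusted p = 0.0301). The 4 pan-leukocyte markers summed to 1178 to 1234 with NICD against 415 to 444 untreated, with 0 of 4 called, and the 3 B cell markers to 706 to 730 against 199 to 209, with 1 of 2 tested called. Neither the Smoc2 call nor the B cell call held without NICD replicate 2. Of the eosinophil markers, which matter for Siglecf, Epx, Prg2, Ccr3 and Il5ra were each below the array median on all NICD and untreated CD24hi arrays, at sums of 138 to 186 against 52.5 to 53.9. The mast cell markers summed to 1416 to 1805 against 1842 to 2118, a sum carried by Kit (-0.98 ± 0.35, adjusted p = 0.103), while the mast cell proteases Mcpt1 (2.35 ± 1.15, adjusted p = 0.236) and Mcpt2 (2.58 ± 0.88, adjusted p = 0.0946) were higher in value without a call. The T cell markers summed to 391 to 468 against 178 to 446, with Cd3e, Cd3g, Cd8a and Trac below the median, and the myeloid markers to 8019 to 9821 against 5923 to 7791. Some of these markers were also called in NICD against untreated CD24lo cells. Neurod1 (2.29 ± 0.51), Tac1 (1.40 ± 0.39), Mcpt1 (3.71 ± 1.15) and Mcpt2 (3.80 ± 0.88) were among those higher there. Lct (-2.24 ± 0.48) and Apoa1 (-1.57 ± 0.32) were lower, and Chga, Chgb, Neurog3, Sst, Cck, Gcg and Pyy were not called. The part of these cell types in the members' values was not tested.

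Among themselves the members followed one profile, with exceptions. Over the 20 sorted arrays each member's level was set against the mean of the other members, giving r = 0.975 for Dclk1, 0.971 for Trpm5, 0.958 for Sh2d6, 0.953 for Pou2f3, 0.948 for Rgs13, 0.913 for Avil, 0.858 for Siglecf and 0.628 for Plcb2. Over the 16 arrays without NICD, Dclk1 was at 0.969 and Rgs13 at 0.953, while Siglecf was at 0.668 and Plcb2 at 0.375. The arrays share group and fraction, so these are descriptions, given without a p. Of 11846 genes ranked by likeness to the mean of the 8 members, the closest were Pygl, the liver glycogen phosphorylase (r = 0.977, and 0.949 without NICD), Rgs4, another G protein regulator (0.966 and 0.965), Isl1 (0.964 and 0.923), Ctxn1 (0.946 and 0.887), Sst (0.944 and 0.916), Scgn (0.940 and 0.863), Pik3cg (0.936 and 0.930), Pik3r5 (0.933 and 0.911), Cdkn1c (0.933 and 0.868) and Asic5 (0.932 and 0.914). Pik3r5 is on the tuft cell lists, and Sst and Isl1 are known from enteroendocrine cells. Pygl had 827 and 779 in NICD CD24hi cells, against 112 and 101 in untreated CD24hi cells, and Sst had 4439 and 6507 against 895 and 1249.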

How the data were processed

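Gene expression was measured on Affymetrix arrays, 21 in all, of which 20 were sorted cells in 10 groups of 2. The deposited values are linear signal intensity per probe set, 45101 on each array, which the authors computed, per the submitters' processing notes, with MAS5. The table holds no detection calls, so dim probe sets are not parted from background. Values were used as log2(signal + 16). The platform annotation gave 1 symbol to 34958 probe sets, several to 932 and none to 9211, and only the first were used. The 22531 above their array's median on at least 2 of the 20 arrays were tested with limma 3.58.1 in R 4.3.3, with 10 group means, 10 residual degrees of freedom, moderated variances with a trend, two-sided tests and the Benjamini-Hochberg adjustment at 0.05 in each of 18 comparisons. The test was tried on simulated data. Other tuft cell genes were counted by 1 probe set a gene, the kept one with the highest mean, and up to 4 per list were named. The number of arrays limits the precision. Alternatives were a pseudocount of 1 or 64, quantile or 75th percentile normalization, no filter or a stricter one, 1 probe set per gene, no variance trend, a replicate block, a fit to the compared groups alone and each array left out. The members and lists were chosen with earlier results of these data known. Replicate numbers were not taken as pairs: over 45 pairs of groups, residuals of same-numbered arrays correlated at -0.379 to 0.363. This range pools all groups and does not show whether the fractions of a condition were paired.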

Additional observations from a re-analysis of the deposited data

Results flagged for a closer look

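For 4 probe sets the effect of NICD in CD24hi cells was larger than its effect in CD24lo cells by a test of that difference. The excess was 3.12 for Trpm5 1443413_s_at (adjusted p = 0.0435, limma), 3.01 for Siglecf (adjusted p = 0.0457), 2.54 for Dclk1 1451917_a_at (adjusted p = 0.0457) and 2.24 for Avil (adjusted p = 0.0378). The count of 4 was 0 without NICD CD24hi replicate 2, whose control probes stood apart, without NICD CD24lo replicate 2 and without any 1 of the 4 untreated arrays. For each of the 4 probe sets the untreated and NICD CD24lo signals were low beside those of NICD CD24hi, and none was called without the filter on low values, where the smallest adjusted p was 0.06.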

How the results depend on the processing

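The filter, the pseudocount and single arrays moved the counts of members called. A stricter filter left 6 member probe sets, and calls went to 6 for the average over conditions, 5 untreated, 5 in Lgr5-ablated mice, 6 after irradiation, 5 after doxorubicin and 6 with NICD for CD24hi against CD24lo, to 6 for NICD against untreated CD24hi and to 2 for the NICD difference between fractions. With 1 probe set per gene, 8 in all, they were 7, 5, 5, 5, 5 and 7 in the same order, and 7 for NICD CD24hi. A fit to the compared groups alone gave 5 in Lgr5-ablated mice and 2 for the NICD difference between fractions. That difference, 4 calls as reported, gave 1 with a pseudocount of 1, 11 with 64, 9 after quantile normalization, 0 without the filter, 0 without the variance trend and 2 with a replicate block; the cause was not tested. In CD24lo cells, where no call was reported, a pseudocount of 1 gave 1 call with NICD and 1 after doxorubicin, and no variance trend 1 with NICD, each Dclk1 1424271_at. The replicate block moved no other count by over 1.5 times.

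With each array left out in turn, the counts ran from 15 to 16 for the average, 5 to 12 untreated, 7 to 13 in Lgr5-ablated mice, 3 to 6 after irradiation, 7 to 9 after doxorubicin, 15 to 15 with NICD, 7 to 14 for NICD CD24hi, 0 to 1 for irradiated CD24hi and 0 to 7 for the NICD difference between fractions. The lowest were without CD24hi replicate 1 for untreated and Lgr5-ablated mice, without CD24hi replicate 2 after irradiation and doxorubicin, and without untreated replicate 2 for NICD CD24hi. Of the single member differences under the alternatives, 131 fell below the threshold, 48 passed it and 0 reversed a call; 180 changed sign with neither value past the threshold. The lone array of a group was then assumed to vary like the others. Signals below the array median carry no detection call, which limits every CD24lo value here. No paired design was assumed. The check of same-numbered arrays pooled all pairs of groups, so it cannot show whether the 2 fractions of a condition came from the same mice.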
